A study of Homo sapiens with 6 samples.

Results

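The class I histone deacetylases and the core of the NCoR corepressor complex were examined in melanoma cells with and without knockdown of NFKBIZ, the gene that encodes the nuclear NF-κB cofactor IκBζ. The genes were chosen by name, with earlier results of these data known. They are the deacetylases HDAC1, HDAC2, HDAC3 and HDAC8 and the corepressor genes NCOR1, TBL1X, TBL1XR1 and GPS2. All 8 were among the 47432 genes listed for every library, and all 8 passed the filter on low counts, which left 13843 genes for testing. RNA-seq was performed in the established human melanoma line LOX-IMVI, transduced with a lentiviral pLKO.1 control construct (shCtrl) or with pLKO.1 carrying a short hairpin RNA directed at NFKBIZ (shNFKBIZ), with 3 libraries per group. A single NFKBIZ hairpin in a single line was used, no other treatment is given in the labels, and the 3 libraries of a group are described as independent experiments in the study, while the labels give no culture or date for them.

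Class I histone deacetylases remove acetyl groups from histone tails and other proteins, and they work mainly as subunits of larger complexes. HDAC1 and HDAC2 are close paralogs shared by the SIN3, NuRD, CoREST and MiDAC complexes, whereas HDAC3 is the catalytic subunit of the NCoR complex and needs its scaffold for activity. TBL1X and TBL1XR1 are WD40-repeat subunits of the same complex, GPS2 is a small subunit that bridges them, and HDAC8 has no known stable corepressor complex. NCoR binds unliganded nuclear receptors and other repressors at their target genes.

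The libraries held 22264473 to 24624839 total exon reads. NFKBIZ, the target of the hairpin, had 1519, 1629 and 1674 exon reads in shCtrl against 474, 477 and 468 in shNFKBIZ, and its log2 fold change was -1.78 (SE 0.0581 with adjusted p = 7.2e-17, edgeR quasi-likelihood test). The melanocyte lineage markers MLANA, SOX10 and S100B had 0 reads in all 6 libraries, whereas the markers of undifferentiated melanoma summed to 587 to 624 TPM in shCtrl (transcript abundance per length, scaled to the same total in every library) against 662 to 677 TPM in shNFKBIZ, with 4 of 5 at 1 TPM or more. The members of that list differed in direction, with mean TPM in shCtrl and shNFKBIZ of 407 and 486 for AXL, 39.6 and 66.2 for EGFR, 21.6 and 55.1 for SOX9, and 134 and 61.9 for WNT5A. The melanocyte list summed to 3.19 to 4.23 TPM in shCtrl against 1.79 to 2.62 TPM in shNFKBIZ, and 1 of its 8 genes, MITF, reached 1 TPM. Leukocyte and endothelial markers stayed at or below 0.482 and 0.102 TPM in sum. The 4 keratinocyte markers summed to 60.0 to 72.1 TPM in shCtrl against 73.1 to 80.7 TPM in shNFKBIZ, almost all of it KRT10, while KRT1 was at 0. The part of these marker differences in the results was not tested. In these bulk libraries, fewer cells of a type and less RNA per cell cannot be told apart.

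The promoters of HDAC3, GPS2 and HDAC1 are shown because these genes had, in that order, the smallest change, the largest change and the highest level of the 8. Each is the 300 bases from 250 before to 50 after the annotated start, 5′ to 3′ on the strand of the gene, from RefSeq on GRCh38.p14. The RefSeq start of GPS2 lies inside the gene span used for counting, chr17:7311324-7315564, and so does most of its window. Capitals mark GC boxes, which were searched as the letters GGGCGG. They also mark CCAAT boxes, searched as the letters of their name, and an ETS core, the binding motif of ETS factors, searched as CCGGAAG. Every motif was searched on both strands, and 2 GC boxes of the HDAC1 window overlap by 1 base.
HDAC3, chr5:141636800-141637099, minus strand: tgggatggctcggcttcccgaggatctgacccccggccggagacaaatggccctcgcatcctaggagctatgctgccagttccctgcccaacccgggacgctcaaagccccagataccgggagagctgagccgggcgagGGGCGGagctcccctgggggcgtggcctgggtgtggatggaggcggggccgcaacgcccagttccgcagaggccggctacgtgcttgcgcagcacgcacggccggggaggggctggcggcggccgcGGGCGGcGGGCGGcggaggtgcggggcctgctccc
GPS2, chr17:7315311-7315610, minus strand: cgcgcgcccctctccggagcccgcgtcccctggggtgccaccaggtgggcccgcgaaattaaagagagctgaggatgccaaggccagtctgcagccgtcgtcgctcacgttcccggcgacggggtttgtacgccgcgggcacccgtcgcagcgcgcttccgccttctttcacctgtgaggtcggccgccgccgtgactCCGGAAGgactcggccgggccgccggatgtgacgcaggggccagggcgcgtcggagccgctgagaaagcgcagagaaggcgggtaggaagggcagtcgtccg
HDAC1, chr1:32291833-32292132, plus strand: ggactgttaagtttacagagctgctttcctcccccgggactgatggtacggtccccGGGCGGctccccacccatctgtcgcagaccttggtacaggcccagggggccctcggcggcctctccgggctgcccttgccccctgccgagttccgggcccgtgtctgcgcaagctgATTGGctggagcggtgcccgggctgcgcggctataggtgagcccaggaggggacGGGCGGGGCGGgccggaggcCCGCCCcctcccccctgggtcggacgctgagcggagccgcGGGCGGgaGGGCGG
The HDAC3 window held 3 GC boxes, the HDAC1 window 6 GC boxes and 1 CCAAT box, and the GPS2 window 0 GC boxes and 1 ETS core. Of 35116 RefSeq promoters of the same length, 45.0% held a GC box, 34.6% a CCAAT box and 10.3% the ETS core. The letters GGG and CC with 5 other bases between them, the spacing of an NF-κB site, occurred 2 times in the HDAC3 window, 1 time in that of GPS2 and 4 times in that of HDAC1, and 58.7% of all promoters held it at least once. The pattern TTCNNNGAA, the spacing of a STAT site, was in 7.66% of all promoters and in none of the 3 windows shown. These matches describe letters only.

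The members differed widely in level. Levels were compared between genes per length, as TPM from total exon reads and the exon length of the files. In shCtrl, HDAC1 was the highest with 156 ± 4.44 TPM (SD, n = 3), and HDAC8 the lowest with 4.48 ± 0.09995 TPM (SD, n = 3). GPS2 and HDAC2, next in the order, overlapped in their levels relative to HDAC1, with GPS2 at 39.3% to 43.6% and HDAC2 at 36.9% to 39.7% of HDAC1. NCOR1, TBL1XR1 and HDAC3 followed in that order without overlap, and TBL1X stood lower, at 6.22% to 6.71% of HDAC1. In shNFKBIZ cells the order was HDAC1, HDAC2, HDAC3, NCOR1, TBL1XR1, GPS2, TBL1X and HDAC8, and HDAC3 and NCOR1 overlapped.

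This order depended on the length used. The exon length of HDAC8 in the files was 22888 bases, the union of all its annotated exons, against 1754 bases for its canonical transcript. With canonical lengths, chosen after the data were seen, HDAC8 was at 19.4% to 20.8% of HDAC1 in shCtrl and overlapped TBL1XR1, and TBL1X became the lowest of the 8. HDAC2 and HDAC3 then overlapped in shCtrl, and GPS2 was at 55.1% to 61.2% of HDAC1.

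**Figure D1:**
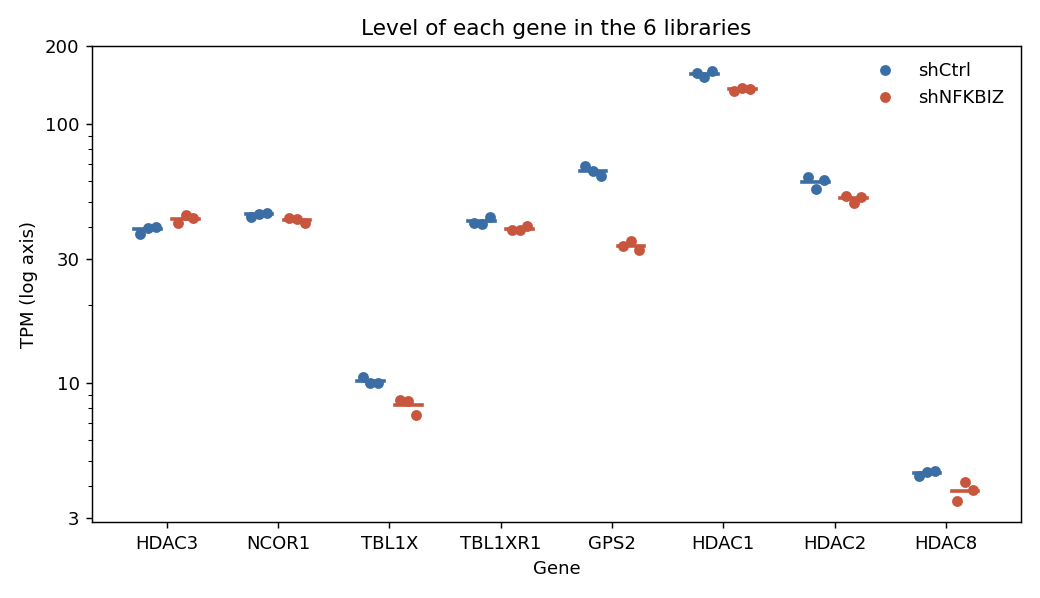
Level of the 8 genes in each library, in TPM on a log axis, with shCtrl in blue and shNFKBIZ in red. Points are libraries and bars are means of 3; the groups are farthest apart for GPS2, and HDAC3 is the single gene whose shNFKBIZ points lie above those of shCtrl.

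Exon reads of the 8 genes were compared between shNFKBIZ and shCtrl after TMM scaling, which sets the bulk of genes to no change. Of the 8, 7 were lower in shNFKBIZ and 0 were higher, where a call is an adjusted p up to 0.05. Over all genes tested, 65.3% were called in either direction, 32.8% as lower and 32.5% as higher, so calls as such were common in these libraries. The median log2 fold change of the 8 was -0.29, against 0.00431 over all genes, and the median size of change over all genes was 0.30. Of the 8, 1 gene, GPS2, was called past 2-fold, where the background was 5.12% lower and 3.84% higher. The other changes were small: for 7 of 8 genes the whole 95% interval of the fold change lay within 1.5-fold either way, as did that of 57.7% of all genes. With a limit of 1.2-fold, 3 of the 8 intervals lay inside, those of HDAC3, NCOR1 and TBL1XR1, and this count was 1 without shNFKBIZ replicate 1 and 2 without shCtrl replicate 1, shCtrl replicate 2 or shNFKBIZ replicate 3. With exon-exon reads 5 of the 8 lay within 1.5-fold, and with unique exon reads all 8 did. In CPM, the reads per gene scaled to the TMM-adjusted library size, 7 of 8 genes were lower without overlap between the groups, which was so for 34.6% of all genes.

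Scaling decided whether some of these small changes were called. TMM factors were 0.964 to 0.979 in shCtrl against 1.02 to 1.04 in shNFKBIZ. Scaling by library size alone put the median of all genes at 0.0937 on the log2 scale. Under it 7 of 8 genes were again called, but 6 were lower and 1, HDAC3, was higher, with 26.4% of all genes called lower and 40.9% called higher.

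HDAC3 (ENSG00000171720, chr5:141620876-141636849, minus strand, hg38), the catalytic subunit of the NCoR complex, had 1078, 1173 and 1066 exon reads in shCtrl against 1114, 1174 and 1186 in shNFKBIZ. The read counts of the groups overlapped. Its log2 fold change was 0.05 (95% interval -0.04 to 0.15, adjusted p = 0.332, edgeR), which limits the change to between -3.04% and 10.99%. By library size alone the log2 fold change was 0.14 (95% interval 0.04 to 0.24, adjusted p = 0.0125), and the bounds were 3.02% and 18.3%. In TPM, which is scaled by the total, HDAC3 had 37.6, 39.6 and 40.1 in shCtrl against 41.3, 44.3 and 43.3 in shNFKBIZ, without overlap. Under both scalings, changes above 18.3% or below -3.04% lay outside the intervals.

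NCOR1 (ENSG00000141027, chr17:16029065-16218185, minus strand), the scaffold that carries HDAC3, had 4241, 4507 and 4093 exon reads in shCtrl against 3957, 3839 and 3849 in shNFKBIZ. All shNFKBIZ counts were below all shCtrl counts. Its log2 fold change was -0.15 (SE 0.0352, 95% interval -0.23 to -0.08, adjusted p = 0.000583, edgeR), a change of -10.2%. The call was lost by library size alone (-0.07, 95% interval -0.14 to 0.01, adjusted p = 0.0987), after removal of a trend with GC content and exon length (-0.07, adjusted p = 0.0968), and with reads that span exon-exon junctions (-0.08, adjusted p = 0.105). NCOR1 overlaps TTC19 and PIGL on the opposite strand, and strand was not used in the counting.

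CORO2A, a further subunit gene of the NCoR complex outside the 8, had 1, 4 and 2 exon reads in shCtrl against 3, 4 and 2 in shNFKBIZ and was too low to test.

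TBL1X (ENSG00000101849, chrX:9463320-9741037, plus strand) had 910, 886 and 797 exon reads in shCtrl against 693, 679 and 619 in shNFKBIZ. Its paralog TBL1XR1 (ENSG00000177565, chr3:177019340-177228000, minus strand) had 3021, 3095 and 2960 in shCtrl against 2673, 2625 and 2801 in shNFKBIZ. Both were lower in every shNFKBIZ library. The fall of TBL1X was -0.39 on the log2 scale (SE 0.0584, 95% interval -0.52 to -0.27, adjusted p = 4.03e-06, edgeR) and was called under all 18 alternatives, with values of -0.48 to -0.30.

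The fall of TBL1XR1 was smaller, at -0.18 (SE 0.0375, 95% interval -0.26 to -0.10, adjusted p = 0.000262, edgeR). By library size alone it was -0.09 (adjusted p = 0.0402). It was no longer called after removal of the trend on GC content and length (-0.03, adjusted p = 0.529) or with exon-exon reads (-0.05, adjusted p = 0.593). Within a library TBL1X had 0.286 exon reads per TBL1XR1 read in shCtrl against 0.246 in shNFKBIZ, without overlap (exact permutation test, two-sided p = 0.1, the smallest possible).

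GPS2 (ENSG00000132522, chr17:7311324-7315564, minus strand), whose promoter with the ETS core is printed above, had 1318, 1302 and 1122 exon reads in shCtrl against 608, 628 and 597 in shNFKBIZ. The groups were far apart. The level was 65.7 ± 2.83 TPM (SD, n = 3) in shCtrl against 33.8 ± 1.44 TPM (SD, n = 3) in shNFKBIZ. The log2 fold change was -1.04 (SE 0.0547, 95% interval -1.16 to -0.93, adjusted p = 2.77e-13, edgeR), or 2.06-fold lower. By library size alone it was -0.95 (95% interval -1.07 to -0.84, adjusted p = 3.18e-12), just under 2-fold. Within a library, GPS2 had 1.13 exon reads per HDAC3 read in shCtrl against 0.528 in shNFKBIZ, and 0.291 and 0.157 per NCOR1 read.

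Most GPS2 reads were not unique to it. A readthrough gene, ENSG00000261915 (chr17:7312661-7319174, minus strand), runs from GPS2 into NEURL4 and shares 1380 of the 3089 exon bases of GPS2, or 44.7%. It had 11 exon reads in shCtrl replicate 2 and 0 in the other libraries. Unique exon reads made up 6.30% to 16.3% of the exon reads of GPS2. They numbered 83, 94 and 73 in shCtrl against 99, 99 and 91 in shNFKBIZ, and were thus not lower in shNFKBIZ, with a log2 fold change of 0.19 (SE 0.131, 95% interval -0.07 to 0.46, adjusted p = 0.192, edgeR).

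Reads that span exon-exon junctions of GPS2, counted without a limit to unique reads, fell. They numbered 776, 730 and 619 in shCtrl against 310, 312 and 292 in shNFKBIZ, with a log2 fold change of -1.19 (SE 0.0685 with adjusted p = 4e-21, edgeR). The 1709 exon bases of GPS2 outside the readthrough gene include 241 that lie in exons of EIF5A on the opposite strand, a translation factor gene with 19954 to 26288 exon reads and a log2 fold change of -0.34. The fall of GPS2 thus rests on reads that were not unique to it, and the few reads unique to GPS2 did not show it. Which other genes the non-unique reads map to was not measured. The part of the shared annotation in the difference between the 2 kinds of reads was not tested.

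**Figure D2:**
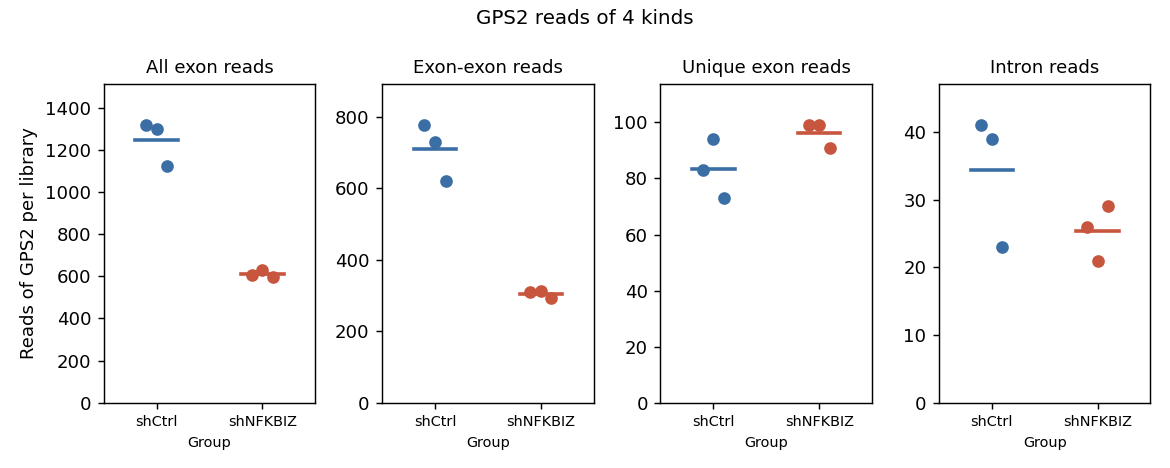
Reads of GPS2 per library, as all exon reads, exon-exon reads, unique exon reads and intron reads, each panel with its own axis from 0. Bars are means of 3 libraries; all exon reads and exon-exon reads are lower in every shNFKBIZ library, and unique exon reads are few, 73 to 99, and not lower.

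HDAC1 (ENSG00000116478, chr1:32292083-32333635, plus strand) had 3879, 3862 and 3665 exon reads in shCtrl against 3122, 3148 and 3209 in shNFKBIZ. HDAC2 (ENSG00000196591, chr6:113933028-114011308, minus strand) had 5953, 5511 and 5358 in shCtrl against 4734, 4379 and 4762 in shNFKBIZ. For both paralogs the shNFKBIZ libraries were the lower ones without overlap. HDAC1 changed by -0.28 on the log2 scale (SE 0.0351, 95% interval -0.35 to -0.21, adjusted p = 3.69e-07, edgeR), that is by -17.7%, and HDAC2 by -0.29 (SE 0.0426, 95% interval -0.38 to -0.20, adjusted p = 5.96e-06), that is by -18.3%.

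Both changes were called under all 18 alternatives. HDAC1 ranged from -0.30 to -0.19, with -0.19 by library size alone (95% interval -0.26 to -0.12). HDAC2 ranged from -0.33 to -0.15, with -0.15 after removal of the trend on GC content and length and -0.17 with exon-exon reads. The ratio of the pair was 1.47 ± 0.0549 HDAC2 reads per HDAC1 read in shCtrl against 1.46 ± 0.0650 in shNFKBIZ (SD, n = 3, exact permutation test, two-sided p = 0.9).

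HDAC8 (ENSG00000147099, chrX:72329516-72573101, minus strand), the class I enzyme outside these complexes, had 622, 665 and 602 exon reads in shCtrl against 469, 546 and 523 in shNFKBIZ. All shNFKBIZ counts were lower, and shNFKBIZ replicate 1 was the lowest. The log2 fold change was -0.31 (SE 0.0619, 95% interval -0.44 to -0.18, adjusted p = 0.000152, edgeR), and it was called under all 18 alternatives with values of -0.47 (exon-exon reads) to -0.22. Unique reads made up 58.6% to 66.7% of its exon reads and gave -0.22 (adjusted p = 0.00836). A readthrough gene, ENSG00000285547, shares 5.21% of the exon bases of HDAC8 and had 0 to 3 exon reads.

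**Figure D3:**
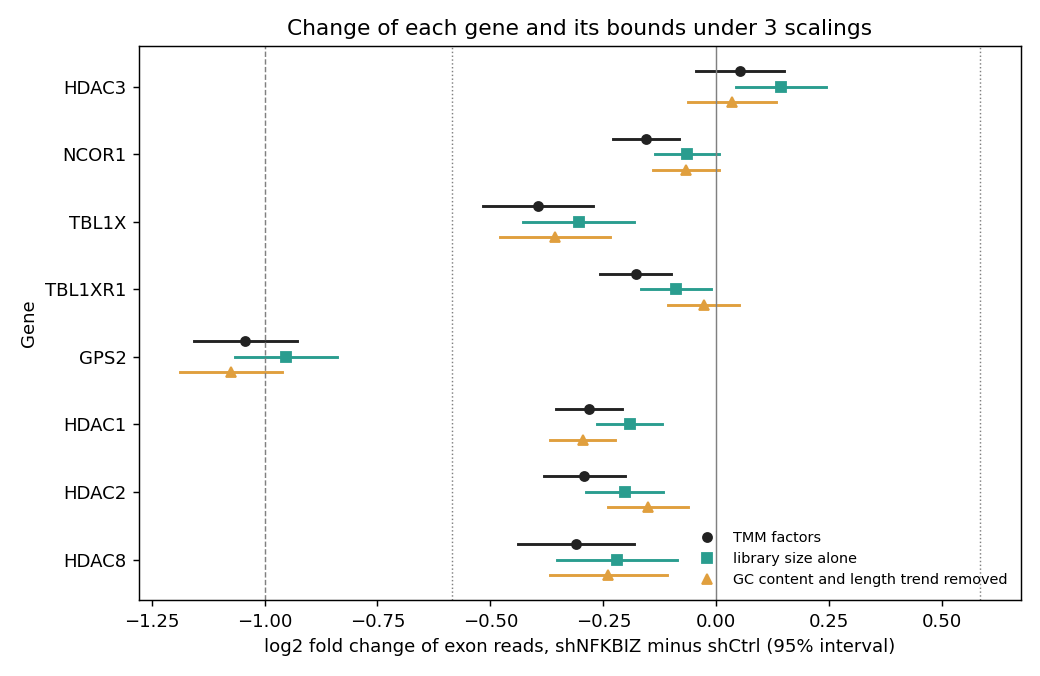
Log2 fold change of exon reads for each gene with its 95% interval, after TMM scaling (circles), library size alone (squares) and removal of the trend on GC content and length (triangles). Dotted lines mark 1.5-fold and the dashed line 2-fold; GPS2 lies at the 2-fold line, and the intervals of the other 7 genes lie inside the 1.5-fold lines under all 3 scalings.

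Exon reads of HDAC1, HDAC2 and HDAC8 fell by similar amounts (log2 fold change -0.28, -0.29 and -0.31), whereas HDAC3 was at 0.05. The makeup of the 4 deacetylases within a library was therefore also compared. It rests on the same exon reads and is no separate readout. HDAC3 made up 14.4%, 15.7% and 15.1% of the summed class I HDAC TPM in shCtrl against 17.8%, 18.8% and 18.4% in shNFKBIZ. The share of HDAC3 was higher in every shNFKBIZ library, with means of 15.1 ± 0.685% and 18.3 ± 0.484% (SD, n = 3, exact permutation test, two-sided p = 0.1, the smallest that 3 against 3 can give). HDAC1 made up 60.2% in shCtrl against 58.1% in shNFKBIZ without overlap, and the shares of HDAC2 (22.97% and 21.98%) and HDAC8 (1.73% and 1.63%) overlapped. All these shares rest on the exon lengths of the files, and their size depends on the length used. In shCtrl, HDAC8 was at 2.78% to 2.98% of HDAC1 with these lengths, against 19.4% to 20.8% with canonical lengths. The shares were not computed with canonical lengths. Together the 8 genes took 0.0869% of all exon reads in shCtrl against 0.0771% in shNFKBIZ.

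Intron reads gave a second readout of the same genes, and whether they came from unspliced RNA or from overlapping genes was not tested. Of the 8, 4 were lower in shNFKBIZ and 0 higher, against 19.5% of 12119 genes called lower. The share of these genes called higher was not computed. TBL1X had 209, 245 and 209 intron reads in shCtrl against 148, 159 and 128 in shNFKBIZ, a log2 fold change of -0.70 (SE 0.0989 with adjusted p = 4.39e-07, edgeR). HDAC8 changed by -0.46 (SE 0.0688 with adjusted p = 1.31e-06), although none of its intron reads were unique, and NCOR1 by -0.39 (SE 0.0739 with adjusted p = 5.87e-05). TBL1XR1, at -0.26 (SE 0.1001 with adjusted p = 0.0390), lost its call by library size alone (-0.20, adjusted p = 0.112) and without shCtrl replicate 3 (-0.20, adjusted p = 0.172), shNFKBIZ replicate 1 (-0.22, adjusted p = 0.137), shNFKBIZ replicate 2 (-0.27, adjusted p = 0.0644) or shNFKBIZ replicate 3 (-0.28, adjusted p = 0.0580). The share of intron reads among gene reads was 7.16% to 7.46% in shCtrl against 7.63% to 8.15% in shNFKBIZ, and its part in these values was not tested.

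The remaining members were not called in intron reads. HDAC1 had 248, 268 and 239 intron reads in shCtrl against 272, 276 and 299 in shNFKBIZ, with a log2 fold change of 0.08 (SE 0.0819 with adjusted p = 0.492, edgeR). HDAC2 was at -0.26 (adjusted p = 0.0519), with 125 to 148 intron reads per library. The noncoding gene HDAC2-AS2 overlaps HDAC2 on the opposite strand and had 154 to 356 intron reads. The part of this overlap in the HDAC2 values was not tested. GPS2 had 21 to 41 intron reads per library and was at -0.52 (SE 0.237 with adjusted p = 0.0771), and without shCtrl replicate 3 it was called at -0.74. HDAC3 had 73, 102 and 83 intron reads in shCtrl against 112, 131 and 94 in shNFKBIZ and was at 0.29 (SE 0.135 with adjusted p = 0.0805). It was called by library size alone (0.35, adjusted p = 0.0355), without shCtrl replicate 2 (0.40, adjusted p = 0.0441) and without shNFKBIZ replicate 3 (0.40, adjusted p = 0.0283), whereas it was 0.19 without shCtrl replicate 1 (adjusted p = 0.342) and 0.20 without shNFKBIZ replicate 2 (adjusted p = 0.322).

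The difference between the exon and the intron log2 fold change was tested in a single model. Of the 8 genes, 3 were called, against 28.9% of 11025 genes. HDAC1 fell in exon reads relative to intron reads, with a difference of -0.34 (SE 0.0826 with adjusted p = 0.000602, edgeR). For NCOR1 the difference was 0.25 (SE 0.0749 with adjusted p = 0.00762) and for TBL1X 0.32 (SE 0.108 with adjusted p = 0.0179), so that their intron reads fell more than their exon reads. NCOR1 lost this call without shNFKBIZ replicate 1 (0.21, adjusted p = 0.0796). TBL1X lost it without shCtrl replicate 2 (0.26, adjusted p = 0.110), shNFKBIZ replicate 1 (0.32, adjusted p = 0.0520) or shNFKBIZ replicate 3 (0.29, adjusted p = 0.0674). GPS2, at -0.50 (adjusted p = 0.0935), was called without shNFKBIZ replicate 2 (-0.67, adjusted p = 0.0474).

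**Figure D4:**
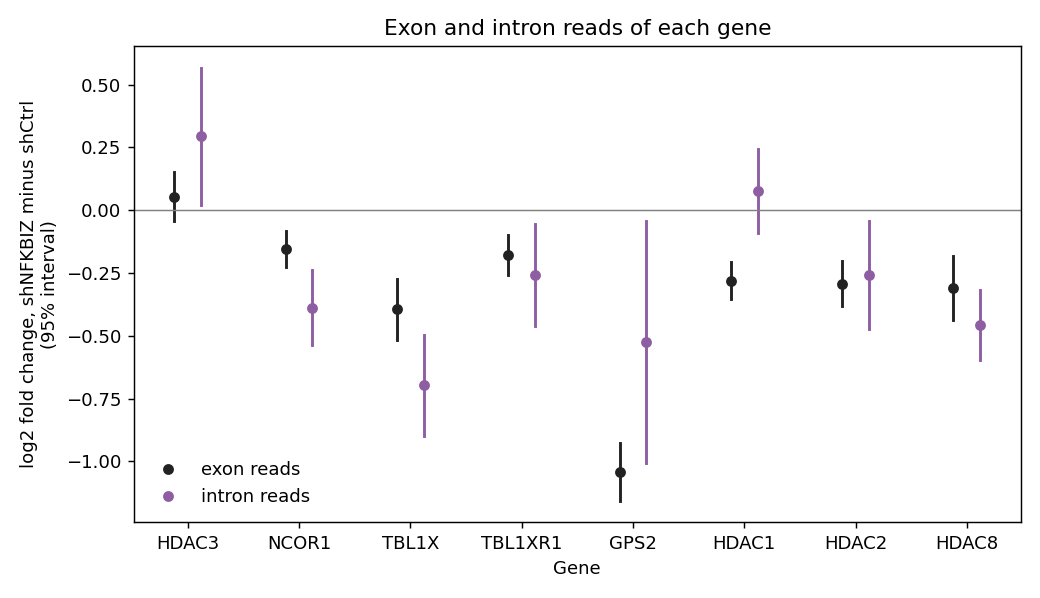
Log2 fold change of exon reads (black) and intron reads (purple) of each gene, with 95% intervals. The difference between the 2 kinds of reads was called for HDAC1, whose intron value lies near 0, and for NCOR1 and TBL1X, whose intron values lie below their exon values; the gap of GPS2 is larger, but its wide intron interval goes with 21 to 41 intron reads per library.

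The other genes of the class I HDAC complexes moved in both directions. The counts of this and the next lists are to be read against the 32.8% of all genes called lower and the 32.5% called higher. Of 37 genes listed for the SIN3, NuRD, CoREST and MiDAC complexes 36 were tested, of which 8 were higher, 15 were lower and 0 passed 2-fold, with a median log2 fold change of -0.03. By library size alone 12 were higher and 15 lower. In the SIN3 complex 2 of 13 were higher and 7 lower, led by BRMS1L (0.39) and by ING1 (-0.77, SE 0.0698, adjusted p = 2.93e-09, edgeR), a reader of methylated histone H3. In the NuRD complex 3 of 11 were higher and 5 lower, led by MBD3 (0.22) and by MTA2 (-0.77, SE 0.0360, adjusted p = 3.57e-14), a subunit that binds HDAC1. In the CoREST complex 1 of 8 was higher, RCOR1 (0.19), and 3 were lower, led by PHF21A (-0.81, SE 0.0509, adjusted p = 5.68e-12), a reader of unmethylated histone H3. Of the histone-binding subunits RBBP4 and RBBP7, RBBP4 rose (0.16, and 0.30 with exon-exon reads), and of 2 tested MiDAC genes MIDEAS rose (0.38). The rises of BRMS1L, MBD3 and RCOR1 were no longer called with exon-exon reads.

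Among the deacetylases of other classes, HDAC4 changed most. This class IIa enzyme, which acts through NCoR-bound HDAC3, had 110, 117 and 104 exon reads in shCtrl against 268, 272 and 253 in shNFKBIZ, with a log2 fold change of 1.25 (SE 0.0966 with adjusted p = 2.06e-10, edgeR), or 2.37-fold higher. It was still called but under 2-fold with total gene reads (0.81) and with exon-exon reads (0.74). Of the 4 class IIa genes 2 were higher and 1, HDAC9 (-0.13, adjusted p = 0.0349), was lower. HDAC9 lost its call in 8 of 18 alternatives, among them those without shCtrl replicate 1 (-0.09), shNFKBIZ replicate 1 (-0.12) or shNFKBIZ replicate 3 (-0.13), and was higher with total gene reads (0.22, adjusted p = 0.000251). Of 2 tested class IIb and class IV genes, HDAC10 rose (0.45) and HDAC6 fell (-0.27, adjusted p = 0.0105), and HDAC6 lost its call without shNFKBIZ replicate 1 (-0.23), by library size alone (-0.18) and in DESeq2 (-0.27). Of 7 sirtuins 1 was higher, SIRT6 (0.28), and 3 were lower, led by SIRT1 (-0.65).

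Of the nuclear receptors and repressors that bind NCoR, 15 of 18 were tested, with 2 higher and 9 lower and a median log2 fold change of -0.22. The retinoic acid receptors RARB and RARG fell past 2-fold. RARB had 514, 524 and 498 exon reads in shCtrl against 248, 231 and 256 in shNFKBIZ (log2 fold change -1.08, SE 0.0710), and RARG had 2285, 2452 and 2030 against 1089, 1045 and 1097 (-1.08, SE 0.0475). By library size alone both were at -0.99, and RARB was at -0.98 after removal of the trend on GC content and length. The largest rise was that of NR1D1 (0.51), a heme-binding repressor of the circadian clock, and it was not called with exon-exon reads. Of 12 histone acetyltransferases and coactivators 7 were higher, led by KAT2B (0.55), and 3 were lower, led by KAT6A (-0.56), with a median of 0.18.

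**Figure D5:**
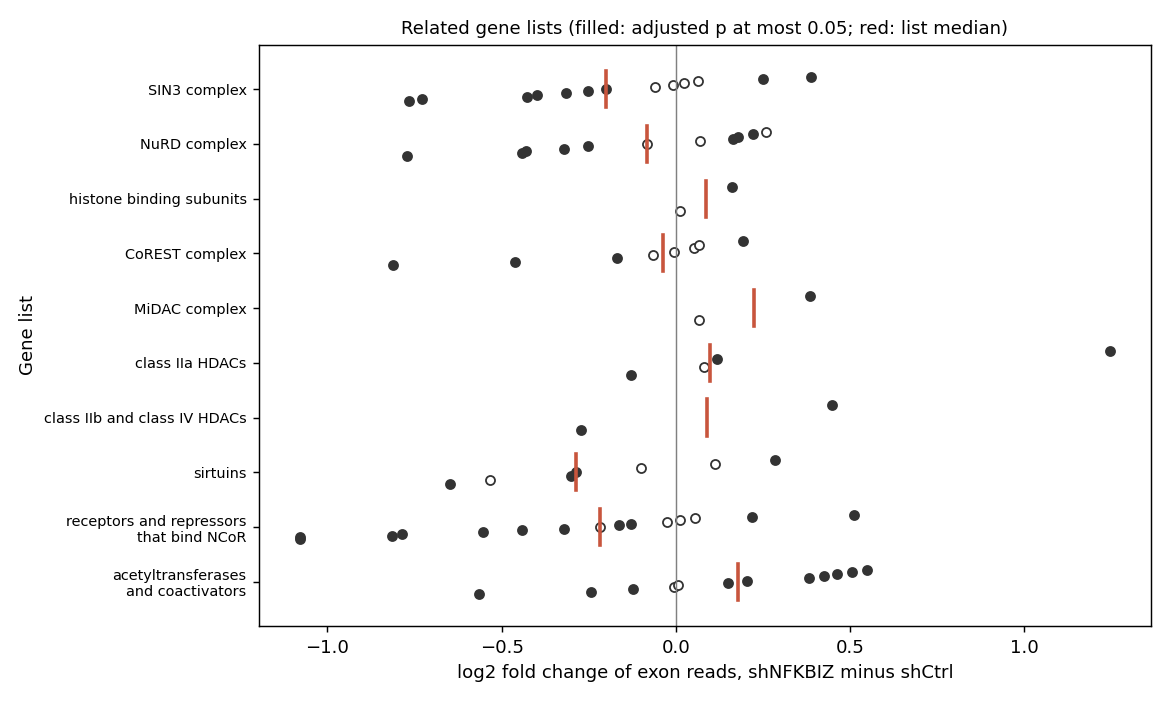
Log2 fold change of exon reads for the tested genes of 10 related lists, 1 point per gene, filled where the adjusted p is at most 0.05, with the list median as a red bar. HDAC4, at 1.25, lies farthest to the right, and RARB and RARG, both at -1.08, farthest to the left.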

How the data were processed

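Total RNA of LOX-IMVI cells was sequenced in 3 shCtrl and 3 shNFKBIZ libraries, grouped by their titles. The authors mapped reads to hg38 (Ensembl 109) in CLC Genomics Workbench 24 with default settings, on both strands and with up to 10 hits per read, and deposited whole-number counts per gene (exon, intron, unique and exon-exon reads). TPM was computed again here from the total exon reads and the exon lengths of the tables. Depth was 22264473 to 24624839 exon reads per library. Replicate pairs differed by more than counting error alone gives (chi-square over its degrees of freedom, 1.71 to 4.45).

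Genes were filtered with filterByExpr, scaled with TMM and fitted with edgeR 4.0.16 in R 4.3.3 (robust quasi-likelihood, two-sided), and p-values were adjusted by Benjamini-Hochberg over all genes tested. The SE is the log2 fold change over the square root of F. Intervals are at 95%. Intron reads were fitted likewise, and exon and intron changes were compared by an interaction with library blocks. The code was tested on simulated data. Alternatives were other scalings and filters, unique and total gene reads, DESeq2 1.42.0, a replicate block, a fit without the 10 most abundant genes, each library left out and other limits; GC content and length trend removal (loess span 0.5), exon-exon reads and canonical lengths were added after the data were seen.

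The members and lists were chosen with earlier results of these data known. Besides the members, NFKBIZ and CORO2A, the text names in each list the called gene with the largest rise and that with the largest fall. It also names every called gene past 2-fold. The genes around GPS2, HDAC8, NCOR1 and HDAC2 and the markers were named for the reads or cells they describe. Coordinates are those of the files and were identical in GENCODE 44 for all 8 members. Another gene named in the rule is not reported here.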

Additional observations from a re-analysis of the deposited data

How the results depend on the processing

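Over 18 alternatives, 137 of 144 log2 fold changes of the 8 genes in exon reads kept their direction and their side of the threshold, 5 were no longer called (3 of NCOR1, 2 of TBL1XR1), 1 was newly called (HDAC3 by library size alone) and 1 changed direction, GPS2 with unique exon reads (0.19). The number called was 5 after removal of the trend on GC content and length, 5 with exon-exon reads, 6 with unique exon reads and 7 otherwise. The number past 2-fold was 0 with upper quartile factors, with library size alone and with unique exon reads, and 1 otherwise. The number with an interval inside the limit was 3 with a 1.2-fold limit, 5 with exon-exon reads and 8 with unique exon reads, against 7. All genes called numbered 5834 with exon-exon reads, which tested 10622 genes, against 9039. The exon minus intron difference of HDAC2, -0.02 and not called, was 0.003642 by library size alone and ranged from -0.0544 to 0.0238 when each library was left out. HDAC9 was at 0.22 with total gene reads. The causes of these changes, and of those given for each gene in the results, were not tested. Same-numbered libraries deviated with correlations of 0.0282, 0.0773 and -0.004 over 12894 genes, and differently numbered ones with -0.0836 to 0.0637. Such small values do not settle whether the numbers pair the libraries. With a replicate block 7 of the 8 genes and 9303 genes in all were called, against 9039 without it. With 3 libraries per group, exact tests on single values cannot go below p = 0.1, and for GPS2 the 73 to 99 unique reads per library limit what unique reads can show.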
